A study of Mus musculus with 5 samples.

Results

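Cytochrome P450 enzymes are heme proteins that use molecular oxygen and electrons to hydroxylate lipophilic molecules. Microsomal members take their electrons from the reductase Por, and mitochondrial members take them from the ferredoxin Fdx1. The families CYP1 to CYP3 are known for clearing drugs and foreign chemicals in the liver, the CYP4 family for hydroxylating fatty acids, and single members for activating vitamin D or breaking down cholesterol. In the testis the family is best known for androgen synthesis and for the breakdown of retinoic acid, and the enzymes of those pathways (Cyp11a1, Cyp17a1, Cyp19a1 and the Cyp26 genes) were left out here.

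The genes described are the mouse P450 genes named by a family number, a subfamily letter and a gene number, other than those enzymes. They comprised 68 genes, each with 1 row, of 17277 named genes on the array, and the RefSeq gene table held another 20 such symbols with no row matched here. The choice went by name and did not use measured values, although it was made with earlier results of these data known. Its name does not hold for 3 of the genes, since Cyp11b1, Cyp11b2 and Cyp21a1 are adrenal corticosteroid enzymes. Cyp51, Cyp2ab1, Cyp3a41a and Cyp4a12b have rows but names of another form, and were not counted.

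The arrays measured total RNA of whole juvenile testes from male mice at postnatal day 9. The series has 5 single-colour arrays. Of these, 3 carry the labels Dmrt1 KO, NGN-cre and Cre-positive, 1 carries Control, NGN-cre and Cre-negative, and 1 carries Dmrt1 KO, DHH-cre and Cre-positive. Dmrt1 encodes a DM-domain transcription factor made in germ cells and Sertoli cells. The labels name the drivers only as NGN-cre and DHH-cre, say nothing of the cells in which they act, and do not say whether samples came from separate or pooled animals, so each p-value reflects sample-to-sample spread, which may be technical. No spread is known for the control or for the DHH-cre knockout, and array numbers set the DHH-cre array apart, so that array batch and that group cannot be told apart. Median intensities were 721 to 730 on the 5 arrays. Markers of Leydig, Sertoli and germ cells were measured in all groups, with mean log2 intensities of 12.38 to 12.59, 12.33 to 13.12 and 13.92 to 14.42. Dmrt1 had intensities of 4884, 5644 and 5509 on the NGN-cre arrays, 6416 on the DHH-cre array and 11847 in the control. It was thus lower in each knockout array, although the difference for the NGN-cre knockout did not pass the test (log2 -1.15, SE 0.22; limma, Benjamini-Hochberg adjusted p = 0.281).

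Promoter sequences are shown for 4 genes on which the results below turn: Cyp2e1, which differed most from the control, Cyp2c55, which was furthest below it on the DHH-cre array, Cyp27b1, which stood furthest apart between the knockouts, and Cyp2s1, the gene with the highest intensity values. Each is the RefSeq window of 250 bases before to 50 bases after the annotated start, in build GRCm38.p6 and on the gene's strand. Capitals mark the TATA box letters TATAAA, searched on the gene strand. The windows lie at chr7:140763569-140763868 on the plus strand for Cyp2e1, chr19:39006769-39007068 on the plus strand for Cyp2c55, chr10:127047996-127048295 on the plus strand for Cyp27b1, and chr7:25816476-25816775 on the minus strand for Cyp2s1.
Cyp2e1: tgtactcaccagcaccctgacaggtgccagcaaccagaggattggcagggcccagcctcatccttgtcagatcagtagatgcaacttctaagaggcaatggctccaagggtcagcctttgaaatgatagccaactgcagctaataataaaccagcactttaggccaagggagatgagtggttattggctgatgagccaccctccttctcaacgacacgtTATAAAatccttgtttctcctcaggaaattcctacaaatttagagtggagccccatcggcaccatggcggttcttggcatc
Cyp2c55: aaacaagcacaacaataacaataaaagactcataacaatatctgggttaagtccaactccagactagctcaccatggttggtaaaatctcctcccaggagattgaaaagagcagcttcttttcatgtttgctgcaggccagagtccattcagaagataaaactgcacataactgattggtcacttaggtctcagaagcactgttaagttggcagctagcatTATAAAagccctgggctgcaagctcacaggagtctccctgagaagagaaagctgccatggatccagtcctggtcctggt
Cyp27b1: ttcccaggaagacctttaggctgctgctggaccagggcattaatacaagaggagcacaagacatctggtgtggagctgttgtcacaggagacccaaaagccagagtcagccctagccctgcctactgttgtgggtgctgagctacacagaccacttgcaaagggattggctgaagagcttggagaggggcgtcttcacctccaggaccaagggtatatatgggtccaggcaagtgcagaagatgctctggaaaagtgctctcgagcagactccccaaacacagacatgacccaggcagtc
Cyp2s1: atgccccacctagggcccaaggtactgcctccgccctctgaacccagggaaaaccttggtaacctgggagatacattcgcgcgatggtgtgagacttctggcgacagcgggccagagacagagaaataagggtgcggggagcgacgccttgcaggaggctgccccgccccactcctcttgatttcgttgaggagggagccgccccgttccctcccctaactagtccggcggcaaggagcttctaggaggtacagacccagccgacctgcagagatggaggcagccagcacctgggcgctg

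The first letter of TATAAA lay at -31 in Cyp2e1 and at -29 in Cyp2c55, counted from the annotated start, and the letters were absent from the other windows. Of the 68 genes, 52 had a RefSeq window, 58 windows in all. TATAAA was found in 31% of these windows and in 8.32% of the 32851 windows of that length. GCGTG, the core of the dioxin response element bound by the Ahr receptor, was searched on both strands and found in 24.1% of the P450 windows and in 32.4% of all windows. ACATTGT, letters at the centre of sites bound by DM-domain proteins, was found on either strand in 5.17% of the P450 windows and in 2.96% of all. Neither was found in the 4 windows shown. None of the 3 motifs contains another, and a match is a description of letters only.

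Most of these genes had low intensities in the juvenile testis. As a guide to dim rows, the 1063 olfactory receptor rows had a median log2 intensity of 5.23 and a 95th percentile of 8.26. Of the 68 P450 genes, 16 (23.5%) had a mean above that percentile, against 62.2% of all rows, 35 lay between it and the olfactory receptor median, and 17 lay at or below the median. The median over the 68 genes was 6.21, against 9.49 over all rows. Intensities of different genes come from different probes, so their order is not an order of transcript amounts. Differences of genes near the dim level are compressed, and their fold is uncertain. P450 genes of 1 subfamily have similar sequences, and whether the probes tell neighbours such as the Cyp2c or Cyp2d genes apart was not tested.

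**Figure D1:**
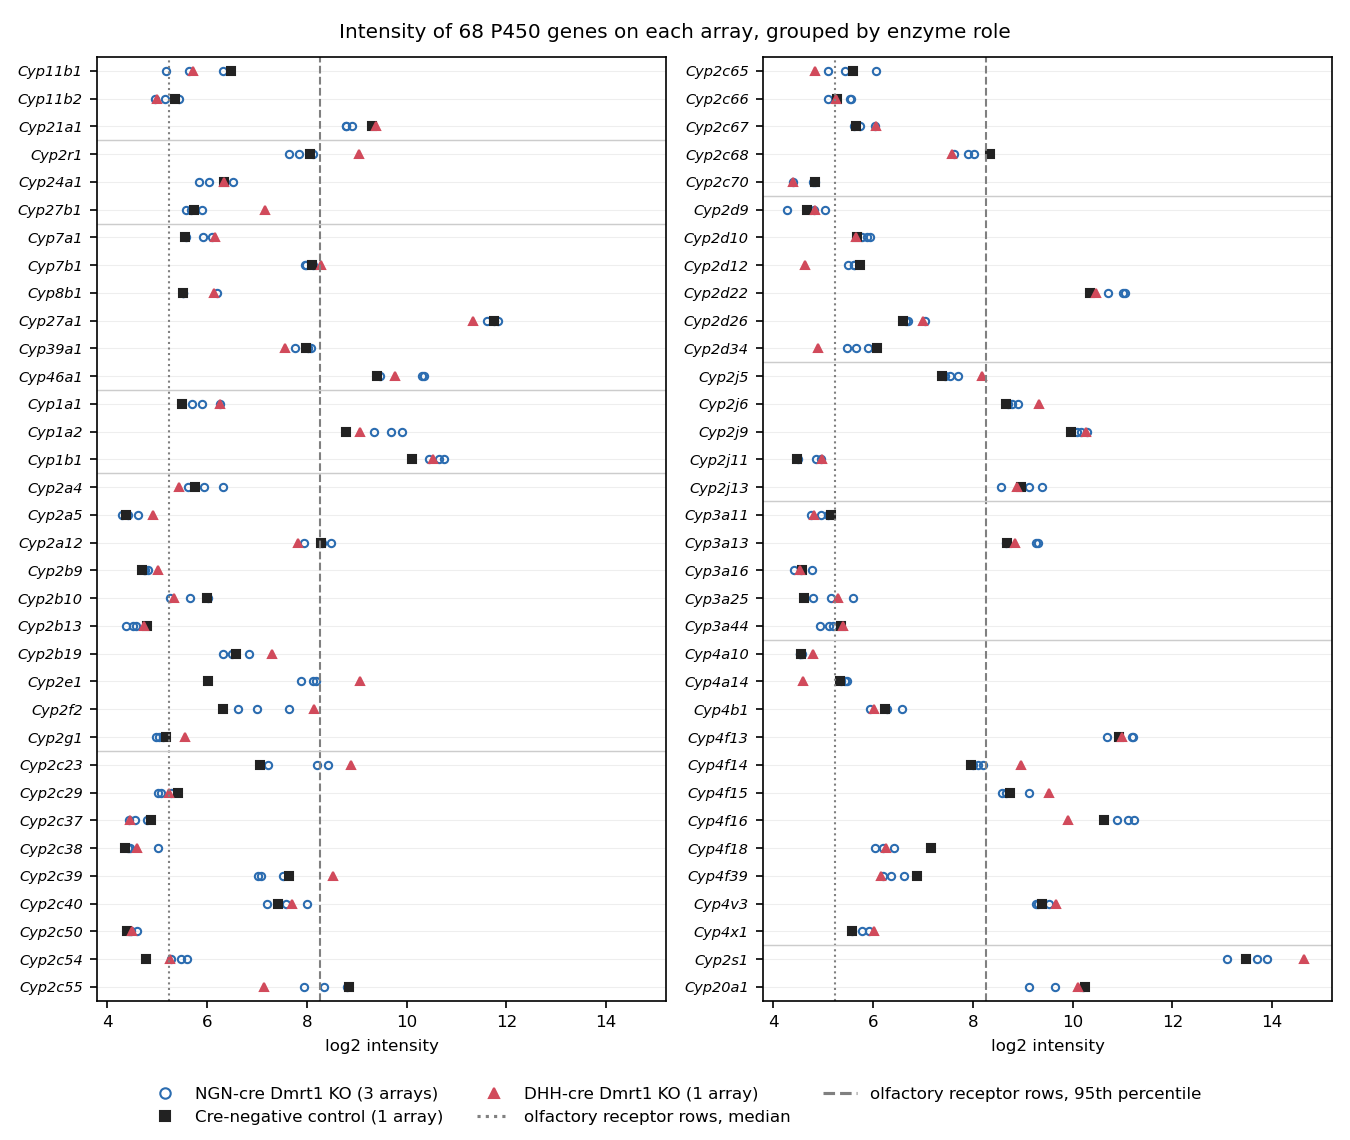
Log2 intensity (x axis) of each of the 68 P450 genes on the 5 arrays, with genes grouped by role between the thin lines. Open circles are the 3 NGN-cre knockout arrays, squares the control and triangles the DHH-cre knockout, and the dotted and dashed lines are the median (5.23) and 95th percentile (8.26) of olfactory receptor rows. Most genes lie left of the dashed line, and Cyp2e1 is seen with its control value well left of the other 4.

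The 16 genes above the dim range belonged to several roles. They were Cyp2s1, an enzyme of epithelia outside the liver, Cyp27a1, the mitochondrial sterol hydroxylase, the fatty acid hydroxylases Cyp4f13, Cyp4f15, Cyp4f16 and Cyp4v3, and Cyp2d22. Also among them were the dioxin-responsive genes Cyp1a2 and Cyp1b1, the arachidonic acid epoxygenase genes Cyp2j6, Cyp2j9 and Cyp2j13, Cyp3a13, Cyp20a1, a member of unknown substrate, the cholesterol hydroxylase gene Cyp46a1 and Cyp21a1. Cyp27a1 had intensities of 3632, 3432 and 3138 on the NGN-cre arrays, 3471.5 in the control and 2566 on the DHH-cre array. The control thus lay among the NGN-cre values, and the DHH-cre value was the lowest of the 5. Cyp4f13 varied from 1659 to 2358 on the NGN-cre arrays, a range that held both the control (1944) and the DHH-cre array (2046). Cyp2j9 (1083 to 1250 on the NGN-cre arrays) was at 1005 in the control and at 1236 on the DHH-cre array. Cyp4v3 had 620 to 742, 666 and 811 in the same order of groups. None of these 4 genes stood more than 0.44 from the control on the log2 scale in either knockout. Cyp20a1 and Cyp46a1 varied more among the NGN-cre arrays, from 560 to 1180 and from 707 to 1305, with control values of 1213 and 683 and DHH-cre values of 1108 and 873.

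The first comparison asked how these genes differed in the NGN-cre knockout relative to its Cre-negative control. The difference that stood out was Cyp2e1, an enzyme that oxidises ethanol, acetone and small solvents and is made mainly in the liver. Its intensity was 292, 235 and 280 on the NGN-cre arrays (269 ± 30.0, SD, n = 3), 64.7 in the control and 539 on the DHH-cre array. Every knockout array lay above the control, the DHH-cre array highest, with no overlap. The NGN-cre knockout was 4.14-fold higher than the control (log2 2.05, SE 0.23), and the DHH-cre array 8.33-fold (log2 3.06). On the log2(intensity + 50) scale, which gives dim values less weight, the differences were 1.47 and 2.36, so the size of the fold is not firm. The difference for the NGN-cre knockout did not pass the threshold over all rows (limma, Benjamini-Hochberg adjusted p = 0.145). It passed when the variance was allowed to follow intensity (limma, adjusted p = 0.0348) and without NGN-cre replicate 3 (limma, adjusted p = 0.0177). Its adjusted p lay between 0.0177 and 0.44 across the alternatives tried. Both differences use the same control array, whose log2 value of 6.02 lay near the dim level, so whether the control was low or the knockouts were high cannot be told from them. With 3 arrays on one side and 1 on the other, an exact permutation test could reach no p smaller than 0.25.

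Marker lists of other cell types stood as follows beside Cyp2e1. The summed intensity of the 8 measured hepatocyte markers was 2553 in the control, 2168 to 2417 on the NGN-cre arrays and 1494.7 on the DHH-cre array. Of these markers, 4 were higher and 4 lower in the NGN-cre knockout than in the control, and Ahsg and Apoa2 carried most of the sum. Alb, the serum albumin gene that defines hepatocytes, had intensities of 61.5, 44.8 and 48.4 on the NGN-cre arrays, 41.9 in the control and 48.7 on the DHH-cre array. It was lowest in the control, as Cyp2e1 was, and near the dim level on every array (log2 5.39 to 5.94). Serpina1a and Ahsg were instead highest in the control, at 74.6 and 1366. On the DHH-cre array, 6 of the hepatocyte markers were lower than in the control and 2 higher. The 7 adipocyte markers summed to 1554 in the control, 1153 to 6750 on the NGN-cre arrays and 2085 on the DHH-cre array, and Adipoq, which defines fat cells, lay between 5.09 and 6.51. The control was lowest, as for Cyp2e1, in the sum of the 7 germ cell markers (141879, against 156820 to 176615 and 183746). It was also lowest in the sum of the 4 measured macrophage markers of 5 listed (5273, against 7046 to 9442 and 7557). In the NGN-cre knockout, 6 germ cell markers were higher than in the control and 1 lower, and 3 macrophage markers were higher and 1 lower. Zbtb16 was highest in the control (30351, against 19042 to 26169 and 14865). Kit and Cd163 had control values above at least 1 knockout array. The part of these cell types in the result was not tested. The 8 Leydig cell markers summed to 104613 in the control, inside the NGN-cre range of 86887 to 121216, and to 104385 on the DHH-cre array. That near equality hides opposed members, since 5 listed genes were higher on the DHH-cre array than in the control and 3 lower. Relative to the NGN-cre knockout, 7 listed genes were higher on the DHH-cre array and 1, Hsd17b3, lower. Hsd17b3 alone went from 22500 in the control to 2305 on the DHH-cre array. Which cells made Hsd17b3 at this age was not tested. Within that list the knockouts differed in opposite directions for the steroid dehydrogenase genes Hsd17b3 (log2 -3.27 on the DHH-cre array against the NGN-cre mean; limma, Benjamini-Hochberg adjusted p = 0.0209) and Hsd3b6 (log2 1.55; limma, adjusted p = 0.0452). Between the knockouts limma called 1% of all rows. In RNA of a whole organ, fewer cells of a type and less RNA per cell cannot be told apart.

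Of the 68 genes, limma called 0 in this comparison at a Benjamini-Hochberg adjusted p under 0.05, as it called 0% of all rows. At an unadjusted p under 0.05 there were 5, or 7.35%, against 7.86% of all rows. These were Cyp2e1, Cyp1a2, Cyp2c54 and Cyp2d22, which were higher (5.88%, against 4.65% of all rows), and Cyp4f18, which was lower (1.47%, against 3.21%). The median difference over the 68 genes was 0.06, with 38 higher and 30 lower, against a median of -0.02 over all rows. The size rule, which counts a gene when it is at least 2-fold from the control and by more than the spread from lowest to highest NGN-cre value, counted only Cyp2e1, 1.47% of the genes against 1.88% of all rows. Among dim rows the shares were 1.92% and 1.99%.

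The CYP1 genes, which respond to dioxin through the Ahr receptor and act on aromatic compounds, had values above the control in all 3 members. Cyp1a2, which is known from the liver for clearing caffeine and aromatic amines, had 828, 957 and 649 on the NGN-cre arrays, 440 in the control and 534 on the DHH-cre array. The control was lowest, and the DHH-cre array lay below each NGN-cre array. The log2 difference from the control was 0.87 (SE 0.27; limma, Benjamini-Hochberg adjusted p = 0.511). Cyp1b1, which hydroxylates estradiol outside the liver, had 1401, 1617 and 1715, against 1097 in the control and 1475 on the DHH-cre array. Here too the control lay below every knockout array, by 0.52 (SE 0.23; limma, adjusted p = 0.661) for the NGN-cre mean. Cyp1a1, the dimmest of the family, differed by 0.46. The receptor gene Ahr differed by 0.16 and its repressor Ahrr by -0.06, and neither passed the test. On the DHH-cre array the differences from the same control were 0.28 for Cyp1a2, 0.43 for Cyp1b1, 0.77 for Cyp1a1 and 0.52 for Ahr.

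Of the 30 genes with values below the control, Cyp4f18 had the largest moderated statistic, and it was dim by its mean (log2 6.42). Cyp4f18, which in the mouse inactivates leukotriene B4 in neutrophils, had 65.8, 73.4 and 86.1 on the NGN-cre arrays and 76.8 on the DHH-cre array, against 143 in the control. All knockout arrays were lower than the control and overlapped each other, with a log2 difference of -0.93 for the NGN-cre knockout (SE 0.24; limma, Benjamini-Hochberg adjusted p = 0.417) and -0.89 for the DHH-cre array. Cyp21a1, the adrenal steroid hydroxylase, had 441, 440 and 479 on the NGN-cre arrays, below both the control (635) and the DHH-cre array (668). Its difference from the control was -0.49 (SE 0.21; limma, adjusted p = 0.657). Cyp11b1 and Cyp11b2, the final enzymes of corticosteroid synthesis, stood at -0.78 and -0.17, both at or near the dim level. Cyp2c68 differed by -0.49 (limma, adjusted p = 0.70) and was dim by its mean. Among the genes higher than the control were Cyp2c54, also dim, by 0.68 (limma, adjusted p = 0.547), and Cyp2d22. Cyp2d22, a relative of the human drug-metabolising CYP2D enzyme, had 2071, 2117 and 1671 on the NGN-cre arrays, against 1300 in the control and 1420 on the DHH-cre array. The NGN-cre arrays were all above the other 2, by 0.58 against the control (SE 0.24; limma, adjusted p = 0.632).

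**Figure D2:**
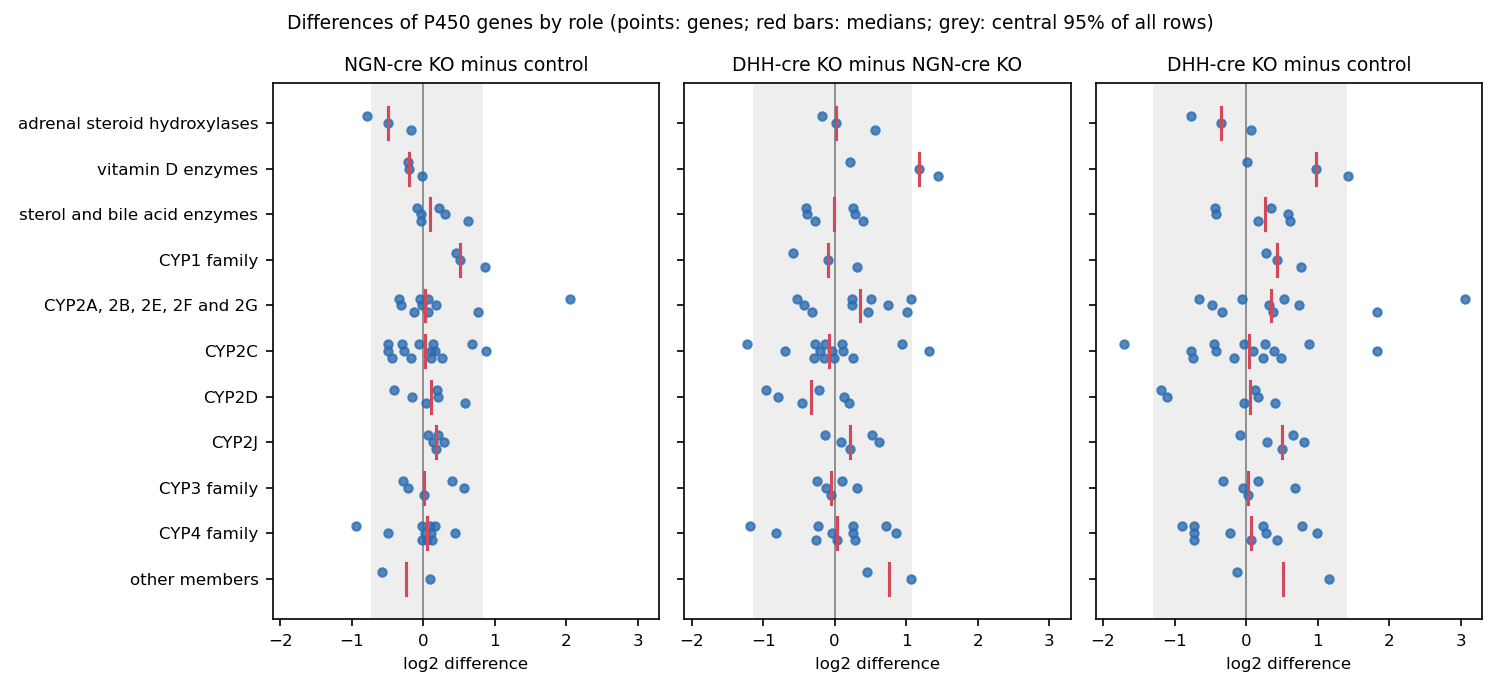
Log2 difference (x axis) of each P450 gene (points) in 3 comparisons (panels), by role, with the median of each role as a red bar and the central 95% of all 25631 rows in grey. Against the control, 5 genes lie outside the grey band for the NGN-cre knockout and 5 for the DHH-cre array, with Cyp2e1 furthest right in both. The left and right panels share the control array.

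The second comparison set the DHH-cre array against the control, with 1 array on each side and hence no test. The only control carries the NGN-cre label, so the DHH-cre knockout has no control of its own. The driver label and the knockout cannot be told apart in these differences. By the size rule 8 of 68 genes (11.8%) were counted, close to the 10.4% of all rows, and among dim rows the shares were 13.5% and 12%. Higher on the DHH-cre array were 5 genes (7.35%, against 5.55% of all rows), namely Cyp2e1, Cyp2f2, Cyp2c23, Cyp27b1 and Cyp2s1. Lower were 3 (4.41%, against 4.81%), namely Cyp2c55, Cyp2d34 and Cyp2d12. Among dim rows the higher share was 7.69% against 6.6%, and the lower share 5.77% against 5.44%. With a pseudocount of 50, Cyp27b1, Cyp2d34 and Cyp2d12 were no longer counted, and among rows above the dim range Cyp2s1 alone remained. The median difference over the 68 genes was 0.17, with 41 higher and 27 lower, against -0.02 over all rows.

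Cyp2f2, which activates naphthalene in the club cells of the lung, had an intensity of 285 on the DHH-cre array and 79.7 in the control, a 3.57-fold difference. The NGN-cre arrays lay between them without overlap, at 199, 98.6 and 129. Cyp2c23, an arachidonic acid epoxygenase gene, had 475 on the DHH-cre array and 134 in the control, a 3.55-fold difference. Its NGN-cre values were 295, 342 and 149. They lay between the same bounds, and replicate 3 was close to the control. Cyp2s1 had 15275, 13366 and 8801 on the NGN-cre arrays, 11402 in the control and 25588 on the DHH-cre array. The DHH-cre value was the highest of the 5 and 2.24-fold above the control, while the NGN-cre values lay on both sides of the control.

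Cyp2c55, which in the mouse makes a hydroxylated arachidonic acid, had an intensity of 142 on the DHH-cre array, the lowest of the 5, and 462 in the control, 3.26-fold higher. Its NGN-cre values of 447, 324 and 248 were all below the control, with replicate 1 close to it. Cyp2d34 and Cyp2d12 had 29.6 and 24.7 on the DHH-cre array, against 67.6 and 53.1 in the control, and their NGN-cre values were 44.3 to 59.8 and 45.4 to 49.2. Both genes were dim on every array, so the fold is uncertain.

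**Figure D3:**
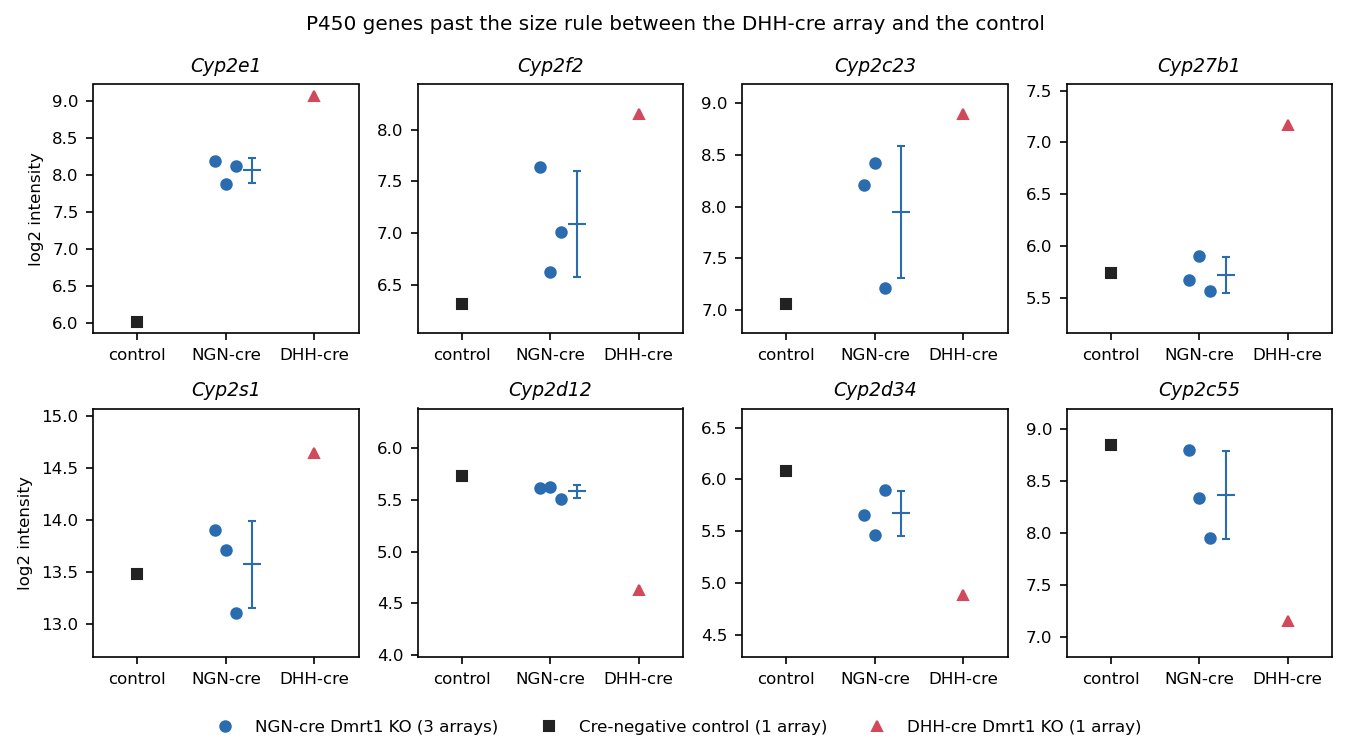
Log2 intensity (y axis) on each array for the 8 P450 genes counted by the size rule between the DHH-cre array and the control; blue bars give the mean and SD of the 3 NGN-cre arrays. The DHH-cre triangle is the highest value in 5 panels and the lowest in 3, and the control is the lowest value for Cyp2e1, Cyp2f2 and Cyp2c23.

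The third comparison set the DHH-cre array directly against the 3 NGN-cre arrays, without the control. Vitamin D is activated by successive hydroxylations, the first by Cyp2r1 or Cyp27a1 and the second by Cyp27b1, and Cyp24a1 inactivates it. Cyp27b1 had an intensity of 144 on the DHH-cre array. The NGN-cre values were 51.1, 60.1 and 47.5 and the control value 53.4. The control lay among the NGN-cre values and the DHH-cre array above them all. By its mean over all arrays (log2 6.01) Cyp27b1 lay within the dim range, so its fold is uncertain. The log2 difference from the NGN-cre mean was 1.45 (SE 0.24), just outside the threshold (limma, Benjamini-Hochberg adjusted p = 0.0507), with values between 0.0238 and 0.148 across the alternatives tried.

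Cyp2r1 had the same order of groups, and by its mean (log2 8.14) it too lay within the dim range. Its intensity was 529 on the DHH-cre array, 269 in the control and 230, 277 and 199 on the NGN-cre arrays, a log2 difference between the knockouts of 1.18 (SE 0.26; limma, Benjamini-Hochberg adjusted p = 0.0861). Cyp24a1 differed by 0.21 and Cyp27a1 by -0.40, and neither passed. The receptor gene Vdr lay on the other side, with log2 intensities of 11.53, 11.14 and 10.33 on the NGN-cre arrays, 11.56 in the control and 9.58 on the DHH-cre array. It was lowest on the DHH-cre array, by 1.42 below the NGN-cre mean (log2 -1.42; limma, adjusted p = 0.161). The DHH-cre array was also lowest of the 5 in the summed Sertoli cell markers (66226, against 74995 to 83330 on the NGN-cre arrays and 90344 in the control) and in the kidney and duct epithelium markers (4081, against 6312 to 8449 and 6109), and the same held for the 5 endothelial markers (19398, against 26127 to 28672 and 23480). Of the 8 Sertoli cell markers, limma called the receptor gene Fshr (log2 -1.55, Benjamini-Hochberg adjusted p = 0.0369) and Cst9 (log2 -3.06, adjusted p = 0.0153) between the knockouts, and the other 6 did not pass. Of all rows, 1% were called in that comparison. The low Sertoli cell sum rested largely on Cst9, with 12645 to 15872 on the NGN-cre arrays, 19740 in the control and 1675 on the DHH-cre array. Other markers of that list went the other way, with Wt1 (15354) and Dhh (3682) highest of the 5 on the DHH-cre array. The part of these cell types in the differences was not tested.

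**Figure D4:**
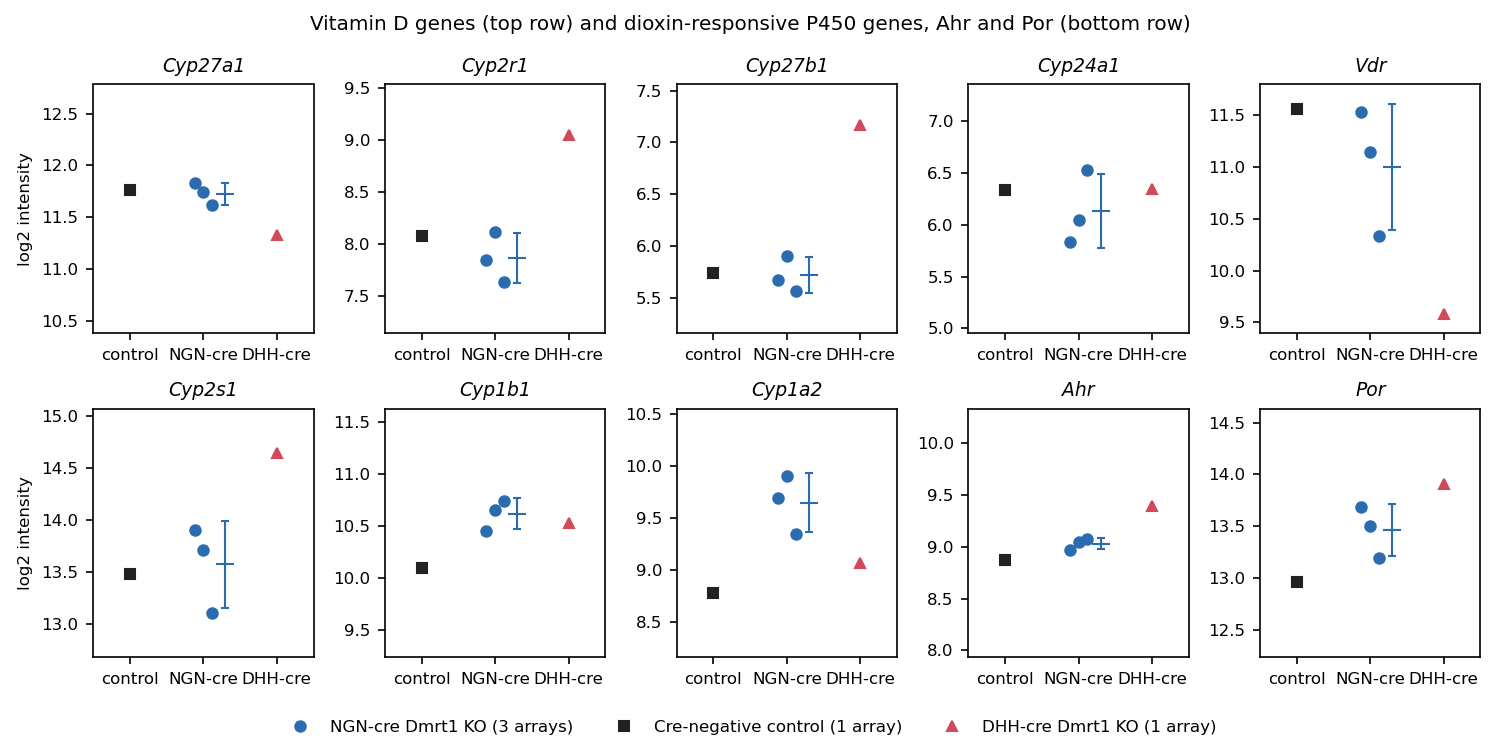
Log2 intensity (y axis, own scale in each panel) on each array for vitamin D genes (top) and for P450 genes known to respond to dioxin, the receptor gene Ahr and the reductase gene Por (bottom); blue bars give the mean and SD of the 3 NGN-cre arrays. The DHH-cre array lies highest for Cyp2r1, Cyp27b1, Cyp2s1, Ahr and Por and lowest for Cyp27a1 and Vdr.

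Other genes near the top of this comparison came from the fatty acid and drug-metabolising subfamilies. Cyp4f16 had 1901, 2417 and 2209 on the NGN-cre arrays, 1586 in the control and 954 on the DHH-cre array. The DHH-cre value was lowest and the control second, with a log2 difference between the knockouts of -1.18 (SE 0.24; limma, Benjamini-Hochberg adjusted p = 0.0734). Its relative Cyp4f14, which hydroxylates leukotriene B4 and vitamin E in the mouse, went the other way, at 498 against 257, 294 and 275, with 251 in the control (log2 0.86, SE 0.22; limma, adjusted p = 0.113). Cyp2c39, which hydroxylates retinoic acid in mouse liver, had 367 on the DHH-cre array. The NGN-cre values were 135, 130 and 184, and the control value was 199. It was highest on the DHH-cre array, by 1.32 (SE 0.27; limma, adjusted p = 0.0773). Cyp2e1 was 1.01 higher than in the NGN-cre knockout (SE 0.23; limma, adjusted p = 0.0962). Cyp2d12 was 0.95 lower (log2 -0.95; limma, adjusted p = 0.0904) and Cyp4a14, a fatty acid hydroxylase gene induced through Ppara, differed by -0.82 (limma, adjusted p = 0.118). By their means over all arrays, each of these genes but Cyp4f16 lay within the dim range.

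Of the 68 genes, limma called 0 between the knockouts at a Benjamini-Hochberg adjusted p under 0.05, against 1% of all rows. At an unadjusted p under 0.05 there were 18 (26.5%), against 18.3% of all rows, of which 13 were higher on the DHH-cre array (19.1%, against 8.77%) and 5 lower (7.35%, against 9.55%). Without NGN-cre replicate 3, the array least like the other 2 NGN-cre arrays, 4 genes were called, namely Cyp27b1 and Cyp2c39 higher and Cyp4f16 and Cyp2c55 lower. That is 4 of 68, beside 1321 of 25631 rows under the same setting, a share near that of all rows. Over the 68 genes the SD of log2 differences was 0.352 to 0.425 among NGN-cre arrays and 0.588 to 0.615 between these and the DHH-cre array. The SE takes the spread of the NGN-cre arrays for the lone DHH-cre array too, which was not tested.

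The remaining genes of each subfamily showed smaller or opposed differences. The 14 Cyp2c genes, which all lie on chromosome 19, had 7 higher and 7 lower values in the NGN-cre knockout than in the control and the same split on the DHH-cre array, with medians of 0.03 and 0.04. In the Cyp2a, Cyp2b, Cyp2e, Cyp2f and Cyp2g genes, which oxidise drugs, steroids and odorants, 5 of 10 were higher in the NGN-cre knockout, and other than Cyp2e1 and Cyp2f2 they lay between -0.34 and 0.18. The 5 Cyp2j genes all had values above the control in the NGN-cre knockout, by 0.06 to 0.29, and 4 of them on the DHH-cre array, where Cyp2j5 stood at 0.81 and Cyp2j6 at 0.66. The 5 Cyp3a genes, the main drug-metabolising enzymes of the liver, ranged from -0.28 to 0.57 and from -0.32 to 0.68, and 4 of them lay at or below the olfactory receptor median. Among the 6 sterol and bile acid enzymes, Cyp7a1, the rate-limiting enzyme of bile acid synthesis, differed by 0.31 and 0.59 and Cyp8b1 by 0.22 and 0.62, both dim. Cyp46a1, known from neurons, differed by 0.63 in the NGN-cre knockout and by 0.35 on the DHH-cre array. Cyp7b1 (-0.08 and 0.17) and Cyp39a1 (-0.03 and -0.42), which hydroxylate oxysterols, lay closer to the control. The 11 Cyp4 genes had 7 higher values in the NGN-cre knockout and 6 on the DHH-cre array, with medians of 0.05 and 0.07.

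Transcripts of the proteins that serve these enzymes were measured from a fixed list. Of 12 genes for electron donors, heme supply and heme breakdown, 11 had a row. In either tested comparison limma called 0 of them, beside 0% of all rows in the first and 1% between the knockouts. At an unadjusted p under 0.05 there were 0 as well, beside 7.86% and 18.3% of all rows. With 11 genes and so few rows called, the adjusted count cannot set this list apart from all rows. Por had log2 intensities of 13.69, 13.51 and 13.20 on the NGN-cre arrays, 12.96 in the control and 13.91 on the DHH-cre array. The control was the lowest and the DHH-cre array the highest, with differences from the control of 0.50 and 0.95. Fdx1 and its reductase gene Fdxr differed by -0.19 and -0.04 in the NGN-cre knockout and by -0.02 and 0.08 on the DHH-cre array. Alas1, the first enzyme of heme synthesis, stood at -0.49 and -0.37.

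Of 18 genes for receptors and factors that control P450 genes, limma called 0 in the NGN-cre knockout relative to the control and 1 between the knockouts, beside 0% and 1% of all rows. The one called was Nr5a2, a nuclear receptor that in the liver drives Cyp7a1 and Cyp8b1. It had 13.06, 12.77 and 12.89 on the log2 scale on the NGN-cre arrays, 11.89 in the control and 11.43 on the DHH-cre array, so the NGN-cre arrays stood above the rest. It fell by 1.48 from the NGN-cre to the DHH-cre knockout (log2 -1.48; limma, Benjamini-Hochberg adjusted p = 0.0465). The size rule counted Nr1h4, the bile acid receptor gene, Nr0b2, a repressor that acts with it, and Nr1i3, a receptor for foreign chemicals, as higher on the DHH-cre array than in the control, by 1.63, 1.68 and 1.23, and Vdr as lower. The rule counted 5.55% of all rows as higher and 4.81% as lower. Nr1h4 lay below the olfactory receptor median on every array but the DHH-cre array, so its fold is uncertain.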

How the data were processed

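RNA of 5 mouse testis samples was hybridised to single-colour Cy3 NimbleGen MM8 60mer expression arrays, per the labels. The authors deposited 1 intensity per transcript on each array, on a linear scale. RMA, which corrects background, equalises array distributions and summarises probes, is named in the submitters' processing notes without a version. It hides shifts of total RNA and compresses dim rows. Of 25631 rows, 17780 were named by unversioned accession through a RefSeq table of GRCm38.p6, used for names only, and 7851 were not. Values were taken as log2, with no pseudocount or filter. limma 3.58.1 in R 4.3.3 (lmFit, eBayes, no trend, two-sided, Benjamini-Hochberg over all rows) was fitted with 1 mean per group over all 5 arrays. Its spread comes from the 3 NGN-cre knockout arrays, and the lone arrays are assumed to vary like them. The number of arrays limits precision.

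The genes named were Dmrt1, the 10 P450 genes with the highest mean, in each tested comparison the 8 with the largest moderated statistic, and those past the size rule, with others given by role. Members and lists were chosen with earlier results of these data known. Alternatives were an intensity trend or robust variances, repeated quantile normalization, median centring, a filter on dim rows, a pseudocount of 50, other folds of the size rule and leaving out each NGN-cre replicate.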

Additional observations from a re-analysis of the deposited data

How the results depend on the processing

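The control and the DHH-cre knockout have 1 array each, and most of the 68 genes lie in the dim range, which limits every fold. No paired analysis was possible because the labels give no shared replicate numbers and a single control. Each P450 gene had 1 row, so averaging rows could not change a value. The count called in the NGN-cre knockout relative to the control was 1 with an intensity trend, and 0 to 1 when a replicate was left out, in place of 0. Between the knockouts it was 2 with the trend, 1 with median centring and 0 to 4 when a replicate was left out, in place of 0. Over all rows the trend called 66 and 729 and the counts without a replicate were 0 to 238 and 38 to 1321, against 0 and 257; a pseudocount of 50 called 97 between the knockouts. The size rule for the DHH-cre array counted 1 gene among rows above the dim range, 5 with a pseudocount of 50, 22 at 1.5-fold and 4 at 3-fold, in place of 8. Over all rows it counted 1489, 1777, 6469 and 806 in these settings, in place of 2654. For the NGN-cre knockout it counted 0 above the dim range, 4 at 1.5-fold, and 1 to 5 without a replicate (2 without replicate 2, 5 without replicate 3, which adds Cyp2c23, Cyp1a2, Cyp11b1 and Cyp4f18), in place of 1. Over all rows it counted 288, 1884 and 458 to 826, in place of 481. The values of the 26 named genes were compared with the main setting under all alternatives. Of these, 9 newly passed the threshold, 9 changed sign, all near 0, and 8 moved by more than the SD of the NGN-cre arrays. The other 582 were counted as unchanged. For tested differences that means the same direction and side of the threshold, and for untested ones a move within that SD. Much of this count was fixed beforehand. Untested differences contain no NGN-cre array, so leaving out a replicate cannot alter them. A trend, robust variances or a row filter alter no tested difference, only its adjusted p. The count is thus no measure of stability. When a replicate was left out, the NGN-cre knockout stood -0.072 to 0.33 from the control for Cyp2s1, -0.081 to 0.024 for Cyp27a1, -0.092 to 0.038 for Cyp4v3 (0.026 without replicate 2) and -0.12 to 0.052 for Cyp27b1 (0.00047 without replicate 1), and the knockouts differed by -0.20 to 0.052 for Cyp4f13 (0.049 without replicate 2) and -0.050 to 0.14 for Cyp4f18. The causes were not tested, other than that leaving out an array or filtering rows changes what is counted.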

Other observations

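Transcripts of enzymes that act on the products of P450 enzymes were measured from a list of 24 genes for conjugating and hydrolysing enzymes, all with a row. In the NGN-cre knockout relative to the control, 0 passed the limma test (Benjamini-Hochberg adjusted p under 0.05) and 2 had an unadjusted p under 0.05, beside 0% and 7.86% of all rows, and the median difference was -0.02. Between the knockouts 10 of the 24 had an unadjusted p under 0.05, beside 18.3% of all rows, and 1 was called, beside 1%. The one called was Gsta1, a glutathione transferase of the alpha class. It had log2 intensities of 12.62, 12.66 and 12.89 on the NGN-cre arrays, 12.81 in the control and 11.004 on the DHH-cre array, which alone stood low, and it fell by 1.72 from the NGN-cre to the DHH-cre knockout (limma, adjusted p = 0.0347). The other alpha-class genes lay on the same side, Gsta2 at -1.33, Gsta3 at -0.99 and Gsta4 at -1.15 between the knockouts (limma, adjusted p = 0.0722, 0.103 and 0.0814). Probes for Gsta1 and Gsta2, which are similar in sequence, may not tell them apart.

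Against the control the size rule counted 5 of the 24 as lower on the DHH-cre array, these 4 and the flavin monooxygenase gene Fmo5 (-1.06). It counted 2 as higher, the epoxide hydrolase gene Ephx2 (1.23), which hydrolyses the epoxides that Cyp2c and Cyp2j enzymes make, and the glucuronosyltransferase gene Ugt1a6a (1.21). The rule counted 5.55% of all rows as higher and 4.81% as lower. Of the P450 genes left out, Cyp17a1 differed from the control by -0.25 in the NGN-cre knockout and by -0.05 on the DHH-cre array, and Cyp11a1 by 0.11 and 0.59. For Cyp26b1 the values were -0.36 and -0.56, for Cyp26a1 -0.35 and -1.33, for Cyp19a1 0.04 and 0.81, and for Cyp51 -0.05 and 0.15. Log2 intensities of Cyp26a1 on the NGN-cre arrays ran from 7.42 to 9.17. That range held both the control (8.89) and the DHH-cre array (7.56), so the size rule did not count Cyp26a1. Cyp2ab1 differed by -0.37 and -0.68, Cyp4a12b by -0.72 and -1.15 and Cyp3a41a by 0.30 and 0.03, all dim, and none of these genes was tested on the DHH-cre array against the control, which has 1 array on each side.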
